A study of Homo sapiens with 12 samples.

Results

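Vimentin, 3 classical cadherins and 6 transcription factors of the epithelial-mesenchymal transition (EMT) were followed by RNA-seq in MDA-MB-231 cells after knockdown of NONO or PKM2. The genes are VIM, CDH1, CDH2, CDH11, SNAI1, SNAI2, TWIST1, TWIST2, ZEB1 and ZEB2. They were selected by gene symbol, and all 10 were present among the 60558 gene identifiers shared by the tables of both experiments. In short, 5 of the 10 genes carried enough reads to be tested, and 4 of these 5 passed the test in each experiment. Of all genes tested, 33.4% passed after NONO knockdown and 68.4% after PKM2 knockdown. SNAI2 was higher after either knockdown, ZEB2 was lower after either knockdown, and ZEB1 was slightly higher after NONO knockdown and clearly lower after PKM2 knockdown. VIM was slightly higher after either knockdown. In the NONO experiment, ZEB1 and SNAI2 no longer passed the test when certain single libraries were left out, as was the case for VIM in the PKM2 experiment. With a second method on length-corrected abundance, no more than 2 of the 5 passed in either experiment. By that method VIM and SNAI2 did not pass in the PKM2 experiment.

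MDA-MB-231 is an established human triple-negative breast cancer (TNBC) line, a cancer without estrogen receptor, progesterone receptor or HER2 amplification. Cells were compared in 4 groups of 3 libraries, namely NC cells of the NONO experiment, NONO knockdown (KD) cells, NC cells of the PKM2 experiment and PKM2 KD cells. NC denotes the negative control, labelled WT, and per the series design each target was knocked down by siRNA. Whether the 3 libraries of a group came from separate cultures is not given in the sources used here, so the p-values measure the spread between these libraries, which may be technical. Each knockdown was compared with the NC group of its own experiment.

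EMT is the programme by which polarized, tightly joined epithelial cells become single, motile mesenchymal cells, and it is studied in TNBC because claudin-low lines such as MDA-MB-231 already carry many of its features. SNAI, TWIST and ZEB proteins are DNA-binding repressors and activators that drive the programme. The SNAI and ZEB zinc fingers bind the E-box hexamer CACCTG, classically in the promoter of CDH1, the gene of E-cadherin, which holds epithelial cells together. N-cadherin (CDH2) and cadherin-11 (CDH11) are the cadherins of mesenchymal cells, and vimentin (VIM) is their main intermediate filament protein. The miR-200 family of microRNAs keeps ZEB1 and ZEB2 low in epithelial cells, and both ZEB proteins in turn repress the miR-200 genes.

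Both knockdowns were visible in their target. NONO fell from 373 ± 16.7 to 62.7 ± 1.40 CPM (read counts scaled to library size; mean ± SD, n = 3 libraries per group), a 5.95-fold decrease, and PKM fell from 2270 ± 56.8 to 227 ± 8.30 CPM, a 10.01-fold decrease. PKM2 is one splice product of PKM and the tables give the gene as a whole. The libraries held between 19861762 and 28455268 counts. Of the receptors that TNBC lacks, ESR1 and PGR stayed below 1 TPM, an abundance corrected for transcript length and depth, in all 12 libraries, ERBB2 averaged between 14.4 and 30.8 TPM, and the MDA-MB-231 genes VIM, CD44, MSN and EGFR were all strongly expressed. The 5 leukocyte markers summed to at most 1.87 TPM, the 4 endothelial markers to at most 4.06 TPM and the 6 fibroblast markers to at most 9.97 TPM, of which COL1A1 made up most. PKM2 KD replicate 3 differed from the other two of its group by a chi-square per degree of freedom of 11.4 and 13.4, against 3.47 between replicates 1 and 2. NC replicate 1 of the NONO experiment differed from replicates 2 and 3 by 11.1 and 8.94, against 2.54 between them. Every call on a member in the NONO experiment held without that NC library, and the calls in the PKM2 experiment held without PKM2 KD replicate 3.

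On GRCh38 with the GENCODE 29 annotation, VIM lies on chromosome 10 from 17228259 to 17237593 on the plus strand, and ZEB1 on the same chromosome from 31318495 to 31529814, also on the plus strand. ZEB2 lies on chromosome 2 from 144364364 to 144524583 on the minus strand. Each of these 3 genes has an antisense neighbour that starts within it. VIM-AS1 shares 641 exon bases with VIM, which is 12.4% of the exon bases of VIM and 32.2% of its own, and ZEB1-AS1 shares 366 exon bases with ZEB1, which is 4.23% of the exon bases of ZEB1 and 9.55% of its own. The closest annotated starts of ZEB1 and ZEB1-AS1 lie 63 bases apart on opposite strands. ZEB2-AS1 shares 1299 exon bases with ZEB2. The other members lie on chromosome 16 (CDH1 and CDH11), 18 (CDH2), 20 (SNAI1), 8 (SNAI2), 7 (TWIST1) and 2 (TWIST2).

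RefSeq promoter windows of 300 bases (GRCh38.p14, 250 bases before and 50 after a transcript start) were searched for 5 of the members. They are shown for 3 that were called in a comparison, and the sequence of SNAI2 is not reported here. The E-box letters CACCTG, or CAGGTG where the box lies on the other strand, are in capitals. VIM has 1 window (chr10:17227991-17228290, plus strand), ZEB2 has 1 (chr2:144520070-144520369, minus strand), and of the 7 windows of ZEB1 the 1 that covers the closest start of ZEB1-AS1 is given (chr10:31318966-31319265, plus strand).
VIM: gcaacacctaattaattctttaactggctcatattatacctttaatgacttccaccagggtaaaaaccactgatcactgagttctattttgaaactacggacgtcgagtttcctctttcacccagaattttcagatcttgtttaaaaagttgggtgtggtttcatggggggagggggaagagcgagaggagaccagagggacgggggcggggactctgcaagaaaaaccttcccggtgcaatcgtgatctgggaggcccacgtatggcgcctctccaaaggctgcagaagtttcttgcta
ZEB2: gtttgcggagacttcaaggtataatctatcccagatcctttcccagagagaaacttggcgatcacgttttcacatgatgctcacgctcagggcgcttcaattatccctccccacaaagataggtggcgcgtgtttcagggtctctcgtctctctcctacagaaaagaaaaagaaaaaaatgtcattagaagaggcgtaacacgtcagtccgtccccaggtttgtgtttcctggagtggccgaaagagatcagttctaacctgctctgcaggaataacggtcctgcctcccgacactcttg
ZEB1: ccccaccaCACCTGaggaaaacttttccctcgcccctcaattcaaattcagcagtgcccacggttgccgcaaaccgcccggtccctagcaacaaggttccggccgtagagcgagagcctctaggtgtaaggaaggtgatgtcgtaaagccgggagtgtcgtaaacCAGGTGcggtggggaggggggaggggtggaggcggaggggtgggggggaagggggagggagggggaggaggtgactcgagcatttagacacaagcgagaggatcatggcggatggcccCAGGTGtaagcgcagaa
The ZEB1 window holds 3 such E-boxes, starting 242 and 85 bases before and 33 bases after the transcript start, and another ZEB1 window (chr10:31318167-31318466) holds 1. The VIM and ZEB2 windows and the other 5 ZEB1 windows hold none. Of 35116 promoter windows of all genes, 20.6% hold at least 1 of these letters and 0.635% hold at least 3. This is a description of letters and not of binding.

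After NONO knockdown, 4 of the 5 tested members passed edgeR's quasi-likelihood test at a Benjamini-Hochberg adjusted P below 0.05. VIM, SNAI2 and ZEB1 were higher, ZEB2 was lower and SNAI1 did not pass. In that experiment 33.4% of all genes tested were called, 16.2% higher and 17.2% lower. After PKM2 knockdown, 4 of 5 were called again, with VIM and SNAI2 higher and ZEB1 and ZEB2 lower, where 68.4% of all genes tested were called, 33.6% higher and 34.7% lower. By the cutoff of the study's methods for a differentially expressed gene (DEG), more than 2-fold at a raw P under 0.05, 0 of the 5 members qualified after NONO knockdown and 1, ZEB2, after PKM2 knockdown. That cutoff took 2.95% and 20.8% of all genes tested. Between the 5 members the median log2 fold change was 0.15 after NONO knockdown and -0.15 after PKM2 knockdown, beside -0.01 over all genes in both experiments. In bulk RNA, fewer cells with a transcript and less of it per cell cannot be told apart.

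The levels of the members spanned a wide range in TPM. VIM was the most abundant by far, between rank 16 and rank 28 of all genes in every library. In the NC libraries of the NONO experiment VIM averaged 3787 ± 78.4 TPM, ZEB1 43.9 ± 3.93, ZEB2 7.89 ± 0.796, SNAI2 4.45 ± 0.386, SNAI1 2.04 ± 0.581 and CDH2 0.07 ± 0.052 TPM. The NC libraries of the PKM2 experiment gave the same order, and in neither NC group did the ranges of neighbours in this order overlap. In both knockdowns SNAI2 stood above ZEB2. The ranges of that pair overlapped in NONO KD (5.52 to 7.52 against 5.11 to 6.6 TPM) and did not overlap in PKM2 KD (6.19 to 7.02 against 2.39 to 4.85 TPM). When levels were taken as normalized counts per kilobase of the tabulated gene length in place of TPM, ZEB2 and SNAI2 changed places in both NC groups as well, so the order of these 2 genes in NC cells depends on the length used.

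Vimentin transcripts rose after NONO knockdown. The 3 NC libraries held 4416, 4537 and 4488 CPM and the 3 NONO KD libraries 5452, 5538 and 5368 CPM. All 3 knockdown values lay above all 3 control values, and such groups without overlap were seen for 46.1% of all genes tested in this experiment. The log2 fold change was 0.28 (SE 0.03, adjusted P = 5.55e-05), an increase of 21.7%. TPM gave the same picture, from 3787 to 4413.

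In the PKM2 experiment VIM was higher by a smaller amount that depended on the scale. The NC libraries held 3958, 3811 and 4048 CPM and the PKM2 KD libraries 4052, 4350 and 4590 CPM. The groups did not overlap, as for 71.9% of all genes tested, but the lowest knockdown library and the highest control library were nearly equal. The log2 fold change was 0.14 (SE 0.05, adjusted P = 0.033). In TPM the groups averaged 3383 ± 67.3 and 3402 ± 98.7, and limma on log2(TPM + 1) gave a difference of 0.0079 with an adjusted P of 0.842. The edgeR call was also lost when any of the 3 NC libraries or PKM2 KD replicate 2 was left out (adjusted P between 0.057 and 0.127).

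Of the 3 cadherin members, none carried enough reads to be tested. CDH1, the gene of E-cadherin, had 0 counts in 11 of the 12 libraries and 2 counts in PKM2 KD replicate 2. CDH11 had 0 counts in all 12. At these depths 3 counts, the limit that a count of 0 allows, correspond to between 0.105 and 0.151 CPM per library, and this limit covers counting error only.

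CDH2, the gene of N-cadherin, was present at a few counts. NC libraries of the NONO experiment held 2, 3 and 2 counts and NONO KD libraries 8, 9 and 12 counts. All knockdown values were thus above all control values. Groups without overlap in CPM were seen for 46.1% of the genes tested in this experiment, which did not include CDH2. In CPM the means were 0.112 ± 0.0268 and 0.489 ± 0.109, and an exact two-sided permutation test of the 3 against 3 libraries gave p = 0.1, the smallest value this design allows. Without the filter on low counts, edgeR gave a log2 fold change of 2.07 with an adjusted P of 0.0335, and DESeq2 gave no adjusted P. In the PKM2 experiment the values overlapped, with 6, 3 and 6.57 estimated counts in NC and 5, 10 and 8 in PKM2 KD (exact permutation p = 0.2). No library of any group held more than 12 counts of N-cadherin.

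SNAI1 encodes Snail, a short-lived repressor of CDH1. It held 40, 35 and 61 counts in NC and 27, 44 and 32 counts in NONO KD. In the PKM2 experiment it held 59, 40 and 46 counts in NC and 30, 29 and 56 in PKM2 KD. The groups overlapped in both experiments. The log2 fold changes were -0.33 (SE 0.28, adjusted P = 0.418) and -0.15 (SE 0.28, adjusted P = 0.665), and at this depth the 95% intervals, -0.88 to 0.23 and -0.71 to 0.41, include 0 and cover changes of either sign.

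SNAI2 encodes Slug, another SNAI repressor and the SNAI gene with more reads in these cells. It held 121, 143 and 147 counts in NC of the NONO experiment and 234, 219 and 152 counts in NONO KD. In CPM the groups were 6.59 ± 0.447 and 10.2 ± 2.14, without overlap, as for 46.1% of all genes tested. NONO KD replicate 3 lay far closer to the controls than replicates 1 and 2 did. The log2 fold change was 0.63 (SE 0.16, adjusted P = 0.01). The call was lost when NONO KD replicate 1 or 2 was left out (adjusted P of 0.0529 and 0.0536).

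After PKM2 knockdown SNAI2 was also higher. NC libraries held 163, 197 and 209 counts and PKM2 KD libraries 250, 217 and 254 counts, or 6.92 ± 1.2 against 9.92 ± 0.533 CPM. The log2 fold change was 0.52 (SE 0.14, adjusted P = 0.00464). All 3 knockdown libraries lay above all 3 controls in CPM, in an experiment where 71.9% of all genes tested had groups without overlap. On log2(TPM + 1) the difference was 0.35 with an adjusted limma P of 0.0569. The difference between the 2 knockdowns in their effect on SNAI2 was -0.12 (95% interval -0.54 to 0.31, adjusted P = 0.682).

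TWIST1 and TWIST2, basic helix-loop-helix factors that drive EMT in development and in carcinoma, had 0 counts in all 12 libraries, with the same limit of 0.105 to 0.151 CPM per library. Of the 6 transcription factors, counts were recorded for SNAI1, SNAI2, ZEB1 and ZEB2. Library preparation selected polyadenylated RNA, and the absence of counts says nothing of the protein.

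ZEB1, a zinc finger and homeodomain factor, had the highest TPM of the 6 member transcription factors. NC libraries of the NONO experiment held 151.8, 154.0 and 169.6 CPM and NONO KD libraries 177.9, 171.7 and 178.6 CPM. The groups did not overlap, as for 46.1% of all genes tested, yet the highest control and the lowest knockdown library were almost level. On the log2 scale the change was 0.15 (SE 0.05, adjusted P = 0.0365), and the call was lost without NC replicate 2 or without any of the 3 knockdown libraries (adjusted P between 0.0728 and 0.126). On log2(TPM + 1) limma gave a difference of 0.10 with an adjusted P of 0.381.

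PKM2 knockdown moved ZEB1 the other way. NC libraries held 136.8, 144.2 and 134.3 CPM and PKM2 KD libraries 99.1, 100.6 and 85.1 CPM. Every knockdown library was far below every control, in an experiment where 71.9% of all genes tested had groups without overlap. A log2 fold change of -0.54 (SE 0.07, adjusted P = 1.53e-05) was found, and ZEB1 fell by 31.4%. In TPM the fall was from 43.9 ± 3.78 to 27.0 ± 5.94. PKM2 KD replicate 3, which stands apart from its group, was the lowest library, and without it the log2 fold change was -0.46 with an adjusted P of 8.63e-07.

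ZEB2, the paralog of ZEB1 with the same arrangement of zinc fingers, was lower after either knockdown. NC libraries of the NONO experiment held 23.3, 22.8 and 22.7 CPM and NONO KD libraries 17.6, 19.9 and 18.0 CPM. The controls were tight and all 3 knockdown libraries lay below them, and 46.1% of all genes tested had groups without overlap. The fitted change was -0.31 on the log2 scale (SE 0.08, adjusted P = 0.00971), so ZEB2 fell by 19.4%. On log2(TPM + 1) limma gave -0.41 with an adjusted P of 0.0569.

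After PKM2 knockdown the fall of ZEB2 was the largest change of any tested member. NC libraries held 22.3, 19.6 and 20.1 CPM and PKM2 KD libraries 8.79, 9.97 and 8.01 CPM. The highest knockdown library, at 9.97 CPM, was far below the lowest control, at 19.6 CPM. In this experiment 71.9% of all genes tested had groups without overlap. This was a log2 fold change of -1.21 (SE 0.10, adjusted P = 5.54e-07), a 2.32-fold decrease, and ZEB2 was the sole member to meet the DEG cutoff. In TPM the groups averaged 8.45 ± 0.174 and 3.54 ± 1.24. Leaving out PKM2 KD replicate 3, again the lowest, gave -1.13 with an adjusted P of 5.58e-07. Across the settings tried other than leaving out a library, the value stayed between -1.29 and -1.09.

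**Figure D1:**
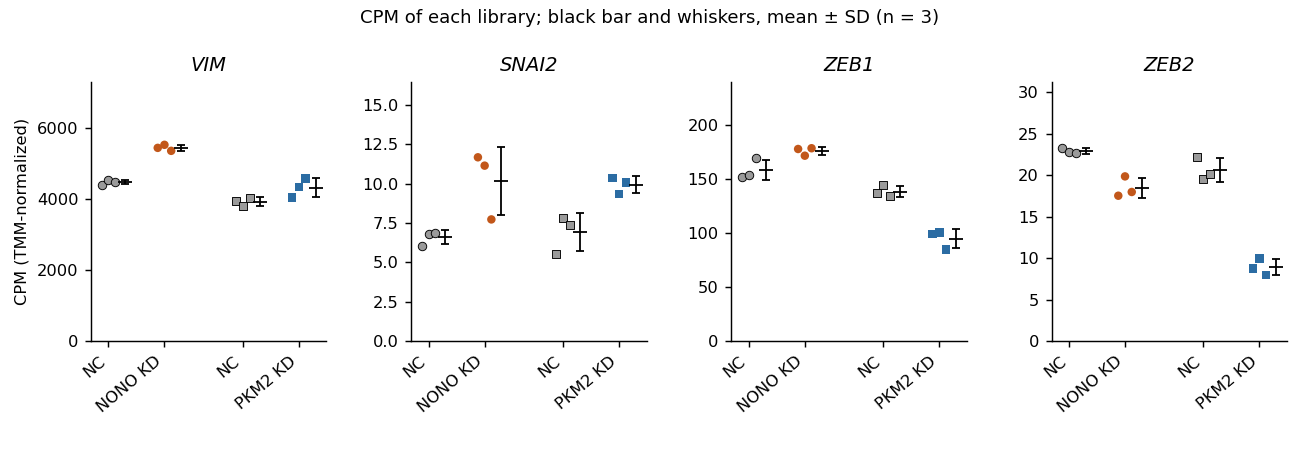
CPM (TMM-normalized, linear axes from 0) of VIM, SNAI2, ZEB1 and ZEB2 in each library, with grey points for NC, orange for NONO KD, blue for PKM2 KD and black bars for the mean ± SD of 3 libraries. ZEB1 drops from 138 to 94.9 CPM and ZEB2 from 20.7 to 8.92 CPM on average in PKM2 KD, while SNAI2 is higher in both knockdowns.

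The ratio of ZEB2 to ZEB1 within a library was lower in either knockdown. ZEB2 amounted to 14.5 ± 1.03 counts per 100 ZEB1 counts in NC and 10.5 ± 0.934 in NONO KD, and to 14.9 ± 1.35 in NC and 9.40 ± 0.522 in PKM2 KD. In both experiments the 3 knockdown values lay below the 3 control values. Of single genes tested, 46.1% (NONO) and 71.9% (PKM2) had groups without overlap in CPM, and no such share was computed for ratios. The ratio restates the changes of ZEB2 and ZEB1 given above. These ratios are not corrected for length and are given as a description.

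Whether the 2 knockdowns acted differently on a member was tested as an interaction over the 12 libraries, with each knockdown set against its own NC. The difference (PKM2 minus NONO, log2) was -0.71 for ZEB1 (SE 0.09, adjusted P = 2.83e-06) and -0.92 for ZEB2 (SE 0.13, adjusted P = 1.13e-05). Without PKM2 KD replicate 3 these values were -0.64 and -0.84, with adjusted P of 1.46e-06 and 3.5e-05. VIM gave -0.16 (SE 0.06, adjusted P = 0.0464), a call that was lost with DESeq2, with other size factors and when 11 of the 12 libraries were left out in turn. SNAI1 gave 0.17 (95% interval -0.65 to 0.98, adjusted P = 0.766). Thus 3 of 5 members passed the interaction test, all with a lower log2 fold change after PKM2 knockdown than after NONO knockdown, but the call on VIM was not robust. VIM itself was higher than NC in CPM after either knockdown. Of all genes tested 53.1% differed, 25.7% higher and 27.4% lower. The 2 experiments share no library. They were deposited as separate tables, with deeper libraries in the PKM2 experiment.

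**Figure D2:**
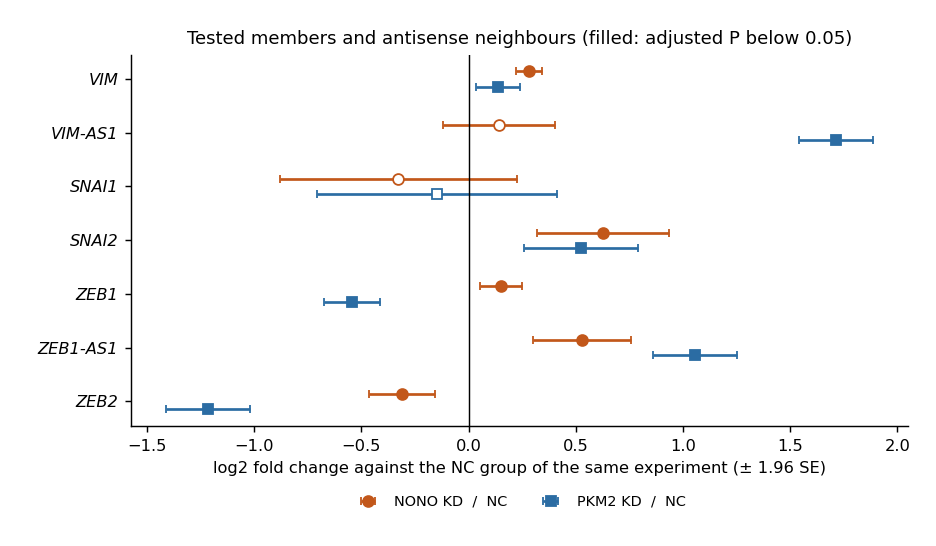
Log2 fold change against the NC group of the same experiment for the 5 tested members and the antisense neighbours of VIM and ZEB1, with bars of the 95% interval by normal approximation, orange circles for NONO knockdown and blue squares for PKM2 knockdown. Filled symbols passed the test, as SNAI2 did on the right and ZEB2 on the left in both experiments, and SNAI1 is open in both.

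The antisense neighbours of VIM and ZEB1 were higher after PKM2 knockdown. VIM-AS1, a long noncoding RNA that starts inside VIM on the opposite strand, held 179.33, 143.53 and 173.51 estimated counts in NC and 477.99, 467.42 and 481.46 in PKM2 KD. The log2 fold change was 1.71 (SE 0.09, adjusted P = 1.17e-08). No knockdown library came near a control, in an experiment where 71.9% of all genes tested had groups without overlap. After NONO knockdown VIM-AS1 stood at 0.14 on the log2 scale (SE 0.13, adjusted P = 0.456). The difference between the knockdowns was 1.56 (SE 0.15, adjusted P = 1.82e-07).

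ZEB1-AS1, which is transcribed away from the ZEB1 start region, held 189.56, 176.42 and 200.92 estimated counts in NC and 350.14, 305.15 and 380.98 in PKM2 KD. It rose (log2 fold change 1.06, SE 0.10, adjusted P = 1.96e-06) where ZEB1 fell. After NONO knockdown ZEB1-AS1 was also higher (0.53, SE 0.12, adjusted P = 0.00469), there together with ZEB1. On log2(TPM + 1) these differences were smaller, 0.40 for PKM2 knockdown (limma adjusted P = 0.0121) and 0.44 for NONO knockdown (adjusted P = 0.269). ZEB2-AS1 had at most 1 count in any library, and TWIST1-AS1 was not present in both tables.

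Set against the gene on the other strand in the same library, VIM-AS1 amounted to 0.152 ± 0.00256 counts per 100 VIM counts in NC and 0.456 ± 0.037 in PKM2 KD, beside 0.154 ± 0.017 and 0.139 ± 0.0113 in the NONO experiment. ZEB1-AS1 amounted to 4.96 ± 0.285 per 100 ZEB1 counts in NC and 15.1 ± 2.39 in PKM2 KD, beside 5.56 ± 0.536 and 7.25 ± 0.652. In TPM the ZEB1-AS1 ratio was 18.2 ± 0.993 and 42.2 ± 14.1 per 100 in the PKM2 experiment. The protocol names no step that keeps the strand of a read and the use of strand in counting is not given in the sources used here, so it is not known whether reads in the shared exons were assigned by strand. The estimated counts of VIM and VIM-AS1 were not whole in all 6 libraries of either experiment, and those of ZEB1 in 4 of 6 and 6 of 6. Of all genes tested, 51.7% (NONO) and 63.9% (PKM2) had a count that was not whole in at least 1 library. The counts of SNAI1, SNAI2 and ZEB2 were whole throughout. Since the use of strand is not known, values of VIM-AS1 and ZEB1-AS1 are uncertain. Even in PKM2 KD the whole of VIM-AS1 came to less than 1 count per 100 VIM counts.

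The miR-200 family is a well known brake on the ZEB genes, and the letters of its sites are shown because ZEB1 and ZEB2 were the members with the largest differences between the knockdowns among the 5 tested. Mature sequences are from RefSeq (GRCh38.p14) with the seed, bases 2 to 8, in capitals. The family holds 2 seeds, 1 shared by miR-200b-3p, miR-200c-3p and miR-429 and the other by miR-200a-3p and miR-141-3p, and a member of each group is shown.
miR-200b-3p (chr1:1167160-1167181, plus strand): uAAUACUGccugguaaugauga
miR-200a-3p (chr1:1167916-1167937, plus strand): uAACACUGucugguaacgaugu
The first match of each seed in the 3′ UTR, with the 7 matching bases in capitals, reads as follows in GENCODE 29, in exon 9 of 9 of either gene.
ZEB1, seed of miR-200b (chr10:31527622-31527650, plus strand): ttttatcttatCAGTATTatcactcttat
ZEB2, seed of miR-200b (chr2:144389042-144389070, minus strand): ctaccatacatCAGTATTtttattattat
ZEB1, seed of miR-200a (chr10:31528035-31528063, plus strand): atcatcagaatCAGTGTTtgtgattgtgt
ZEB2, seed of miR-200a (chr2:144389226-144389254, minus strand): aaaattttgtaCAGTGTTaaggcctaaaa
In its longest annotated 3′ UTR, ZEB1 holds 6 matches to the first seed and 3 to the second in 2549 bases, and ZEB2 holds 5 and 4 in 5370 bases. Of 18977 3′ UTRs, 16.2% hold at least 1 match to the first seed and 0.848% hold 3 or more, and for the second the shares are 18.5% and 1.05%. The 3′ UTRs of VIM, CDH1, CDH2, SNAI1, TWIST1 and TWIST2 hold none, and that of CDH11 holds 1 match to the first seed. That of SNAI2 is not reported here. The rows of MIR200A, MIR200B, MIR200C, MIR141, MIR429 and the host gene MIR200CHG had 0 counts in all 12 libraries, but libraries of polyadenylated RNA do not capture mature microRNAs.

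Genes around the members were grouped in 10 lists. Of all genes tested, 16.2% rose and 17.2% fell after NONO knockdown, and 33.6% rose and 34.7% fell after PKM2 knockdown. The counts of every list below stand beside these shares, and the median over all genes was -0.01 in both experiments. The 12 other EMT transcription factors were all in both tables and 9 were tested. After NONO knockdown 2 rose and 1 fell, with a median log2 fold change of 0.10. After PKM2 knockdown 2 rose and 5 fell, with a median of -0.66. TCF3, which encodes E2A, a helix-loop-helix repressor of CDH1, rose in both experiments, from 53.8 to 104.7 TPM with NONO knockdown (log2 fold change 0.90, SE 0.04, adjusted P = 1.53e-07) and from 51.7 to 99.9 TPM with PKM2 knockdown (1.05, SE 0.05, adjusted P = 1.18e-08). The forkhead factor FOXC1 fell in both (-0.46, adjusted P = 0.00437, and -0.80, adjusted P = 1.81e-05). KLF8 fell from 1.87 to 0.343 TPM after PKM2 knockdown (-2.03, adjusted P = 5.93e-06), or -1.08 on log2(TPM + 1).

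Of 10 transcription and splicing factors that hold cells in the epithelial state, 3 had 0 counts in all libraries and 4 were tested. ELF3, an epithelial ETS factor, was called higher after NONO knockdown (1.10, SE 0.34, adjusted P = 0.0281) and after PKM2 knockdown (1.21, SE 0.30, adjusted P = 0.00366), at levels of at most 3.49 TPM on average. The call after NONO knockdown was lost when NC replicate 3 or any KD library was left out (adjusted P between 0.05 and 0.114). On log2(TPM + 1) with limma neither ELF3 call held (adjusted P of 0.106 and 0.109). KLF4 rose after PKM2 knockdown from 16.7 to 35.1 TPM (1.23, SE 0.11, adjusted P = 1.12e-06).

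Among 23 genes of epithelial junctions and keratins, 15 were tested. After NONO knockdown 2 rose and 6 fell (median -0.06), and after PKM2 knockdown 6 rose and 8 fell (median -0.21). Among the largest changes were those of claudins, the strand proteins of tight junctions. CLDN3 fell from 1.92 to 0.61 TPM after NONO knockdown (-1.57, adjusted P = 0.00424, or -0.85 on log2(TPM + 1)) and from 1.75 to 0.0633 TPM after PKM2 knockdown (adjusted P = 5.2e-06). CLDN4 fell from 13.9 to 7.16 TPM after NONO knockdown (-0.88, adjusted P = 0.00044) and after PKM2 knockdown (-0.96, adjusted P = 6.81e-06). CLDN1 was lower after NONO knockdown (-0.89, adjusted P = 0.0113, lost without KD replicate 2 or 3 at 0.0594 and 0.057, and with limma on TPM at 0.0867) and higher after PKM2 knockdown (1.43, adjusted P = 2.19e-06), a difference of 2.31 between the knockdowns (adjusted P = 1.96e-06). KRT19 fell after PKM2 knockdown from 52.6 to 20.7 TPM (-1.21, adjusted P = 2.86e-08). The summed TPM of the 8 luminal markers was 507.1 to 515.3 in NC and 648.6 to 674.9 in PKM2 KD, mostly KRT8 and KRT18. Only KRT8 (185.6 to 227.7 TPM) and KRT18 (228.0 to 389.8 TPM) were higher on average in PKM2 KD. Every other marker of the 8 was lower on average, as EPCAM (2.94 to 1.64 TPM) and KRT19 were. CDH1 was at 0 in 2 of the 3 PKM2 KD libraries. In the NONO experiment the sum was 487.2 to 510.3 in NC and 426.1 to 450.1 in NONO KD. The part of these marker changes in the results on the members was not tested.

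Of 16 other mesenchymal genes, 11 were tested for NONO and 12 for PKM2. With NONO knockdown 2 rose and 4 fell (median -0.09), and with PKM2 knockdown 2 rose and 8 fell (median -0.65). FSTL1, a secreted glycoprotein, fell in both, from 199 to 129 TPM (-0.54, adjusted P = 3.07e-06) and from 230.1 to 76.4 TPM (-1.71, adjusted P = 1.6e-10). After PKM2 knockdown the matrix genes FN1 (fibronectin) and TNC (tenascin C) fell from 91.5 to 28.1 TPM (-1.70, adjusted P = 1.51e-08) and from 41.5 to 11.7 TPM (-1.69, adjusted P = 1.68e-08). After NONO knockdown S100A4 rose (0.65, adjusted P = 0.00593) and TAGLN fell (-0.64, adjusted P = 0.0113, lost without KD replicate 2 at 0.0573). Both changed in the same direction after PKM2 knockdown (0.44, adjusted P = 0.000367, and -1.34, adjusted P = 3.63e-06). On log2(TPM + 1) the NONO calls of S100A4 and TAGLN were lost with limma (adjusted P of 0.0622 and 0.107). After NONO knockdown TNC rose (0.43, adjusted P = 4.98e-05), a difference of -2.13 between the knockdowns (adjusted P = 7.24e-11), and FN1 did not pass (0.17, adjusted P = 0.134).

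Of 19 other cadherins only 3 were tested. CDH4 (R-cadherin) fell in both experiments, from 23.6 to 16.0 TPM (-0.50, adjusted P = 0.000363) and from 24.6 to 14.8 TPM (-0.60, adjusted P = 3.96e-06), and CDH24 fell in both (-0.49, adjusted P = 0.000406, and -0.46, adjusted P = 2.23e-05). CDH8 rose after PKM2 knockdown (1.08, adjusted P = 0.00735), a call lost on log2(TPM + 1) with limma (adjusted P = 0.121). With the trend of GC content and length taken out, an alternative chosen after the data were seen, the values after PKM2 knockdown were -0.30 for CDH4 and -0.20 for CDH24. CDH4 stood at 23.6 TPM in NC of the NONO experiment, where CDH2 stood at 0.07 TPM.

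Catenins and other partners of cadherins numbered 15, of which 13 were tested. After NONO knockdown 1 rose and 4 fell (median -0.04). ARVCF, a catenin of the p120 type (-0.86, adjusted P = 0.00482), CTNNBIP1, an inhibitor of beta-catenin (-0.66, adjusted P = 0.000336), and VCL, vinculin (-0.50, adjusted P = 3.47e-06), changed most, and ARVCF missed the threshold with limma on log2(TPM + 1) (adjusted P = 0.0519). After PKM2 knockdown 5 rose and 6 fell (median -0.16). JUP, plakoglobin, fell from 4.64 to 1.07 TPM (-2.02, adjusted P = 5.49e-07) and PKP4 from 66.7 to 25.6 TPM (-1.36, adjusted P = 3.03e-09), and CTNNA1, alpha-catenin, rose from 194.5 to 274.0 TPM (0.63, adjusted P = 1.57e-07).

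Of 14 other intermediate filament genes and their linkers, 8 were tested. After NONO knockdown 3 rose and 1 fell (median 0.04), and the 3 that rose were the lamins LMNB2 (0.40, adjusted P = 6.12e-05), LMNA (0.25, adjusted P = 0.000353) and LMNB1 (0.23, adjusted P = 0.00424). After PKM2 knockdown 4 rose and 4 fell (median 0.03), with LMNA higher (0.71, adjusted P = 1.17e-07) and LMNB2 lower (-0.64, adjusted P = 1.34e-07). With the GC and length trend taken out LMNB2 was at -0.36. LMNB2 differed between the knockdowns by -1.05 (adjusted P = 8.54e-10). GFAP, at 1.9 TPM in NC, was called lower after PKM2 knockdown (-1.15, adjusted P = 0.0194), a call lost with DESeq2 (0.0519) and without NC replicate 3 or KD replicate 1 or 3 (0.0614 to 0.075).

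The corepressors that SNAI and ZEB proteins recruit were all 13 tested. After NONO knockdown 3 rose and 2 fell (median 0.06), with RCOR1, the CoREST scaffold, lower (-0.38, adjusted P = 0.000545) and the deacetylase HDAC1 (0.35, adjusted P = 0.00012) and the chromatin remodeller SMARCA4 (0.28, adjusted P = 0.00083, lost with limma on log2(TPM + 1) at 0.057) higher. After PKM2 knockdown 5 rose and 7 fell (median -0.12). HDAC2 fell from 279 to 121 TPM (-1.05, adjusted P = 2.83e-09), and EZH2, the methyltransferase of the Polycomb complex, fell from 59.9 to 33.2 TPM (-0.70, adjusted P = 4.07e-07). CTBP2, a corepressor of ZEB proteins, rose from 80.6 to 115 TPM (0.70, adjusted P = 9.47e-08).

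Snail is controlled largely through protein turnover, and 9 of 10 genes listed for it were tested. After NONO knockdown 2 rose and 0 fell (median 0.10), namely USP37, a deubiquitinase (0.26, adjusted P = 0.0345), and GSK3B, the kinase that marks Snail for degradation (0.19, adjusted P = 0.0252). Each of these calls was lost in several leave-one-out fits (adjusted P up to 0.13 and 0.122) and with limma on TPM (0.415 and 0.213). After PKM2 knockdown 5 rose and 2 fell (median 0.20). USP27X, a deubiquitinase that stabilizes Snail, fell from 4.9 to 1.16 TPM (-1.95, adjusted P = 1.16e-07), and USP37 (0.81, adjusted P = 6.05e-06, lost with limma on TPM at 0.09) and USP1 (0.60, adjusted P = 3.58e-07) rose. Snail protein was not measured here. The 2 tested antisense neighbours, 1 called higher after NONO knockdown and 2 after PKM2 knockdown, form the last list.

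The genes whose pattern over the 12 libraries was most like that of a called member were ranked by Pearson's r of log2 CPM after subtraction of the NC mean of the same experiment, over 14524 genes. Closest to VIM were BSG (r = 0.974) and RPS14 (r = 0.973), to SNAI2 the noncoding gene AC008267.5 (r = 0.947) and SASS6 (r = 0.926), to ZEB1 the genes SP1 and GSTCD (both r = 0.989), and to ZEB2 the genes ZNF275 (r = 0.996) and C1orf198 (r = 0.994). SP1 had log2 fold changes of 0.16 after NONO knockdown (adjusted P = 0.0208) and -0.77 after PKM2 knockdown (adjusted P = 8.67e-07), beside 0.15 and -0.54 for ZEB1. ZNF275 had -0.42 (adjusted P = 0.0117) and -1.67 (adjusted P = 3.52e-07), beside -0.31 and -1.21 for ZEB2. All these values share the 12 libraries and their depth, and the likeness is given as a description.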

How the data were processed

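RNA-seq of 12 MDA-MB-231 libraries was analysed, 3 in each of 4 groups taken from the sample labels. Polyadenylated RNA was sequenced from both ends at 150 bases. For every gene in a library the authors deposited an estimated count, often fractional, and a TPM value, in 1 table per experiment (60623 and 60671 genes). The submitters' processing notes name fastp, HISAT2, StringTie, RSEM, DESeq2, edgeR, limma and hg19, without their roles. The treatment of strand and of multi-mapped reads is not given in the sources used here. Fold changes and p-values from the authors' own comparisons and their group means of TPM also stand in the deposited tables and were left aside. All library columns were used (0 left out). Each gene was matched between the tables by its identifier.

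Estimated counts were rounded and tested with the quasi-likelihood test of edgeR 4.0.16 (R 4.3.3) after filterByExpr and TMM, separately in each experiment with its 6 libraries (14832 genes for NONO, 15524 for PKM2), and on all 12 for the interaction (15995 genes). A gene was called at a Benjamini-Hochberg adjusted P below 0.05 over all genes tested, and SE was computed from the F statistic. Fold changes and CPM are on the TMM scale, which takes the bulk of genes as unchanged. Alternatives were DESeq2 1.42.0, other factors and filters, limma 3.58.1 on log2(TPM + 1) or log2(TPM + 0.1) with a floor of 1 on mean TPM or no floor, a replicate block, the length trend (20 bins), 1 fit over 12 libraries and each library left out. A joint trend with GC content and length was added after the data were seen. On simulated counts with 200 genes changed 4-fold, edgeR recovered 196 (NONO), 197 (PKM2) and 185 (interaction), with 14, 10 and 9 false calls.

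The members and gene lists were chosen with earlier results of these data known, so the list counts are descriptions with no set test. Named genes were the members, the knockdown targets, up to 3 genes per list and comparison with the largest fold change among those called that averaged 1 TPM or more in either group, and the 2 genes most like each called member. A gene that this rule names is not reported here. KRT8, KRT18, EPCAM and FN1 are named for context or comparison. GENCODE 29 (GRCh38) and RefSeq (GRCh38.p14) were used for location and sequence only, since they may not be the annotation behind the tables. Motifs were searched on both strands in promoters, and on the transcript strand in the longest 3′ UTR of each gene (at least 30 bases).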

Additional observations from a re-analysis of the deposited data

Results flagged for a closer look

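Members whose response differed between the knockdowns, by the interaction test of edgeR over 12 libraries, were ZEB1 (PKM2 minus NONO, -0.71 on the log2 scale, adjusted P = 2.83e-06), ZEB2 (-0.92, adjusted P = 1.13e-05) and VIM (-0.16, adjusted P = 0.0464). In CPM, ZEB1 was higher than NC in 3 of 3 NONO KD libraries and lower in 3 of 3 PKM2 KD libraries. In TPM its ranges overlapped in the NONO experiment (NC up to 48.3, NONO KD from 44.8). ZEB2 was lower than its NC in 3 of 3 libraries of each knockdown, by 19.4% with NONO knockdown and 56.9% with PKM2 knockdown. VIM was higher in 3 of 3 libraries of each knockdown in CPM. In TPM the lowest PKM2 KD library (3291) lay below all NC libraries of that experiment (3324 to 3457). The difference for VIM was past the threshold without PKM2 KD replicate 3 but not when any other library was left out. Groups without overlap in CPM were seen for 46.1% of all genes tested for NONO and 71.9% for PKM2. Groups of 3 libraries are too small for the test of single outlying samples.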

How the results depend on the processing

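With limma on log2(TPM + 1), on log2(TPM + 0.1) and on log2(TPM + 1) without a floor, 2645, 2657 and 1699 genes were called after NONO knockdown against 4954 with edgeR. The members called were then 2, 2 and 1 of 5 after NONO knockdown and 2, 2 and 2 of 5 after PKM2 knockdown, against 4 each with edgeR. Without a floor limma called 19 of the listed genes after NONO knockdown, against 37. The cutoff of the study's methods left 0 members for NONO, 1 for PKM2 and 0 for the difference between them. With normalized counts per kilobase, 4 of 6 places in the order of levels were kept in each NC group. The causes were not tested.

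Leaving out 1 library at a time, the members called after NONO knockdown numbered from 2 to 4. SNAI1 ranged from -0.48 to 0.0041 after PKM2 knockdown, and its difference between the knockdowns from -0.17 to 0.39, including -0.06 without NC replicate 3 of the NONO experiment. The difference for SNAI2 ranged from -0.28 to 0.0078. Over single members, 95 leave-one-out values kept direction and side of the threshold, 21 fell short of it and 4, all of them not called to begin with, changed sign. Under the other settings 103 were kept, 16 fell short and 1 moved by more than the spread, ZEB1 after PKM2 knockdown at -0.46 with the length trend taken out. The median over all genes stayed within 0.1 of 0 except at -0.10 with limma on log2(TPM + 0.1) for PKM2.

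Libraries with the same replicate number did not deviate together (r between -0.19 and 0.12), beside -0.21 to 0.25 for libraries with different numbers. With 3 libraries per group this cannot exclude a pairing, and the labels name none. A replicate block called 4351, 10525 and 8239 genes for NONO, PKM2 and their difference, and 4, 4 and 2 members. It ended the call on VIM for the difference (adjusted P = 0.0655) and the NONO calls of USP37 (0.0631) and GSK3B (0.0568), and 33 in place of 37 listed genes were called after NONO knockdown. Members with few counts, SNAI1 and CDH2, are limited by depth.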
